A study of Mus musculus with 9 samples.

Results

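The 10 genes described here encode transcription factors of the mesenchymal progenitors that build the skull vault: Twist1, Twist2, Prrx1, Prrx2, Snai1, Snai2, Zeb1, Zeb2, Six2 and Alx4. They were taken by gene name, and all 10 were found among the 40548 genes of the deposited expression tables. The RNA came from primary calvarial cells of C57BL/6 mice, which are the bone-forming cells released from the skull of newborn pups by collagenase, and was sequenced after depletion of ribosomal RNA. Day 0 cells were confluent cultures before differentiation, and day 4 and day 7 cells had spent that many days in mineralization medium, which supplies β-glycerol phosphate as a source of mineral and ascorbic acid for collagen. There were 3 libraries for each stage. The labels give no genotype beyond the strain and state that the cells came from pups at postnatal day 2 to 3, whereas the methods give a wider age range, pups of both sexes, and a strain that was either wild type or carried a GFP transgene driven by a Col1a1 promoter, without saying which gave the RNA. The study calls the libraries of a stage biological replicates, and neither it nor the labels say which pups or cultures gave each of them. Mineralized cells were treated with collagenase before trypsin at collection and day 0 cells were not, so the stage and the way of collection cannot be told apart.

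TWIST1 and TWIST2 are basic helix-loop-helix proteins that bind E-box sequences together with the ubiquitous E proteins and hold back osteoblast genes by acting on RUNX2. Loss of a TWIST1 copy in people fuses the coronal suture too early. PRRX1, PRRX2 and ALX4 are paired-type homeodomain proteins of craniofacial and limb mesenchyme, PRRX1 marks stem cells of the calvarial sutures, and ALX4 mutations leave openings in the parietal bones. SIX2 is a homeodomain protein best known for keeping nephron progenitors undifferentiated, and it is also made in head mesenchyme. SNAI1, SNAI2, ZEB1 and ZEB2 are zinc-finger repressors that bind E-boxes in epithelial genes such as Cdh1 (E-cadherin) and are the core of the epithelial-to-mesenchymal transition (EMT), and SNAI1 and ZEB2 are also made in mesenchymal cells that have no epithelial programme to repress.

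In the GRCm38 assembly with GENCODE M21 annotation, the protein-coding genes lie at chr12:33957671-33959829 (Twist1), chr1:91801461-91848028 (Twist2), chr1:163245119-163313710 (Prrx1), chr2:30834972-30881251 (Prrx2), chr2:167538195-167542814 (Snai1), chr16:14705852-14709385 (Snai2), chr2:44983632-45117395 (Zeb2), chr17:85684277-85688274 (Six2) and chr2:93642384-93681339 (Alx4), with the place of Zeb1 not given here. Prrx1, Zeb2 and Six2 are on the minus strand and the other 6 on the plus strand. The antisense gene Gm29100 covers 46.5% of the exonic bases of Twist2, and the sources used here do not state whether reads were counted by strand, so the level of Twist2 is uncertain. For the other 9 genes, at most 2.26% of the 50-base stretches of their transcripts also occur in another gene's transcripts.

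Promoter windows of 300 bases (250 before and 50 after the transcription start) in the RefSeq table for GRCm38.p6 were found for 7 of the 10 genes, and Snai2, Zeb1 and Alx4 had none. Both strands were searched for CAGGTG (read as CACCTG on the other strand), the E-box that SNAI and ZEB proteins prefer, for CATATG, an E-box of TWIST, and for TAATTA, the core site of homeodomain proteins such as PRRX and ALX. The last 2 read the same on both strands, and the 3 motifs do not overlap in the windows shown. CAGGTG or CACCTG occurred in 22.6% of all genes with a window and in 1 of the 7 factors, Snai1. TAATTA occurred in 6.12% of all genes and in 1 of the 7, Prrx1, and CATATG occurred in 4.49% of all genes and in none of the 7. Among 15 epithelial genes with a window, of 27 listed as repressed by SNAI and ZEB, 12 held CAGGTG or CACCTG, and genes are often put on such lists because of these E-boxes. The windows of the 2 factors with a motif are shown with that of Epcam, an epithelial adhesion gene with 2 E-boxes, and capitals mark the motifs. Snai1 is given at chr2:167537945-167538194 on the plus strand, Prrx1 at chr1:163313711-163313900 on the minus strand, and Epcam at chr17:87635729-87635978 on the plus strand, all in GRCm38.p6, written 5′ to 3′ and ending at or before the transcription start.
Snai1: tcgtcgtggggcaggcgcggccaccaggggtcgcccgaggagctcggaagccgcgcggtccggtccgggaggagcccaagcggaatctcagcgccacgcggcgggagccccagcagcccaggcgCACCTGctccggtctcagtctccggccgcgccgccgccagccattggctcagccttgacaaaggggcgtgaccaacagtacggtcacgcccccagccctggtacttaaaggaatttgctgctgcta
Prrx1: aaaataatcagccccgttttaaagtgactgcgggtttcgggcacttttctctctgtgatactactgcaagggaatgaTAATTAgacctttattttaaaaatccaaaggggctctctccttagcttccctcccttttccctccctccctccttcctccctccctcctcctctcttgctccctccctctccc
Epcam: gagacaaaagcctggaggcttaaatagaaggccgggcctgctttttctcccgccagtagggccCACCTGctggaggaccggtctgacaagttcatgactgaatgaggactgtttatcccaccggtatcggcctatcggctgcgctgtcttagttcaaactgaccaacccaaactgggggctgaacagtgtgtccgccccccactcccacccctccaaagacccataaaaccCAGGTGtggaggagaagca
The E-box of Snai1 lies 126 to 121 bases before the start and the homeodomain core of Prrx1 173 to 168 bases before it. The E-boxes of Epcam lie 187 to 182 and 19 to 14 bases before its start. A match of letters does not show that a protein binds there.

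The deposited values were CPM, the reads on a gene scaled to the total of its library, and RPKM, which also divides by the length of the gene, and RPKM is used wherever levels of different genes are set side by side. A library had between 7741204 and 14013219 reads on genes at day 0, from 32820610 to 37306090 at day 4 and from 10675858 to 15622755 at day 7. Day 0 replicate 3 was the shallowest, and the noncoding transcript Gm42418 took 11.96% of its reads against 2.94% to 3.04% in the other day 0 libraries. Gm42418 also took 8.12% of day 7 replicate 2, where the lowest share at that stage was 0.11%. In day 7 replicate 3, Plekhh2 took 7.95%, against a lowest share of 0.0084% at that stage. Of the 9 osteoblast markers, 8 rose from day 0 to day 7 and none fell in limma. Markers of other cells and states were counted in the same fit. Over all genes tested 12.6% rose and 18.6% fell. Between day 0 and day 7, 12 of 13 tested macrophage markers rose, and 3 of 6 osteoclast markers rose and 1 fell. Only 3 of 10 endothelial and 2 of 12 skeletal muscle markers passed the filter on low values. Of these, 2 endothelial markers (Erg and Esam) and both muscle markers (Des and Acta1) rose. Esam and Des were low, at 0.067 and 0.073 RPKM at day 0 and 1.03 and 0.919 at day 7. Both passed the filter through day 7 alone, which fixed their direction. Of 7 tested smooth muscle and pericyte markers, which also include Des, 3 rose and 1 fell. Of 3 Schwann cell markers tested 1 fell, of 7 chondrocyte markers 3 rose and 3 fell, and of 3 adipocyte markers 1 rose. Emcn and Tie1 (endothelium), Myf5 and Tnnc2 (muscle) and Cidec and Lep (fat) had no reads in any library. The summed level of the 15 macrophage markers ranged from 76.1 to 129 CPM at day 0, 151 to 174 at day 4 and 161 to 209 at day 7. Their part in the results below was not tested, and fewer cells of a type and less RNA per cell cannot be told apart in such bulk samples.

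By RPKM, Twist1 and Prrx2 were the most abundant of the 10 factors at every stage. At day 0 the RPKM of Twist1 was higher than that of 98.2% of the 21878 genes with a value above 0, and that of Prrx2 was higher than 97.8% of them. The libraries of these 2 genes overlapped at each stage, so their order was not resolved. Prrx1 came next, below every library of Twist1 and Prrx2, and was followed by Alx4. Snai2, Six2 and Snai1 overlapped with their neighbours in that order at day 0, with Zeb1 and then Zeb2 below them. At day 7 the libraries of Six2 and Zeb2 overlapped. Twist2 was lowest by far, at the 36.6th percentile at day 0, with 5 to 30 reads in a library. This order of genes depends on the division by length. In CPM, Prrx1 stood above Twist1 and Prrx2, with a day 0 mean of 486 against 157 and 160.

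**Figure D1:**
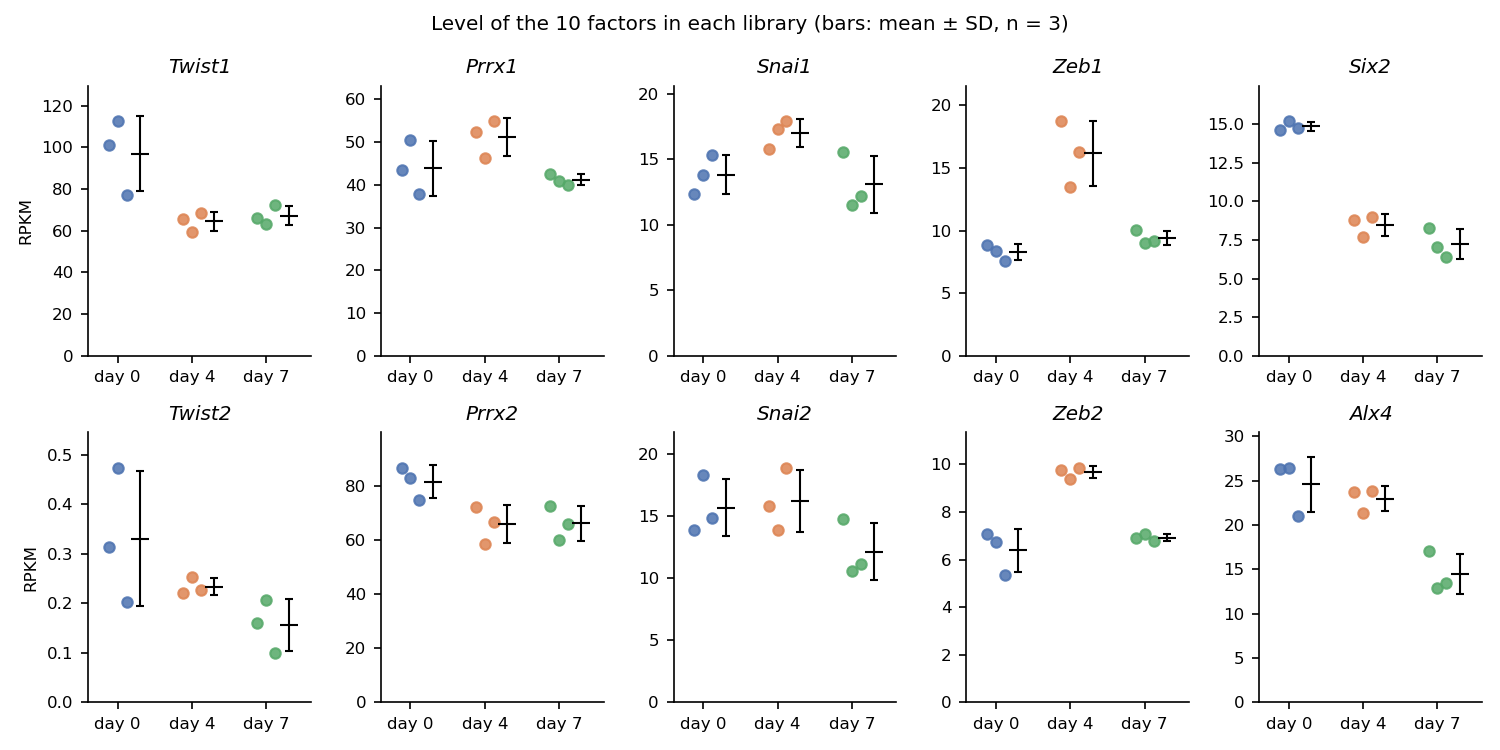
RPKM (vertical axes, each from 0 on its own scale) of the 10 factors in the 3 libraries of each stage (points), with the mean and SD of each stage beside them. Zeb1, Zeb2 and Snai1 have their 3 highest libraries at day 4, Six2 and Twist1 are highest at day 0, and Alx4 is lowest at day 7.

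From day 0 to day 7, 3 of the 9 factors that passed the filter on low values fell and 0 rose. The 3 were Six2, Alx4 and Twist1. Over all 12712 genes tested, 18.6% fell and 12.6% rose, against 33.3% and 0% of the 9 factors. With 9 genes these shares are coarse, and the share of all genes that fell ranged from 12% without day 0 replicate 2 to 36.9% without day 0 replicate 3. The test was limma on log2(CPM + 0.5), with p-values adjusted by Benjamini and Hochberg over every gene tested and a threshold of 0.05, and the changes below are log2 differences of day 7 minus day 0 on that scale. Without adjustment, 4 factors were lower and 0 higher at a limma p under 0.05, with Snai2 added to the 3 above. The share of all genes at that looser threshold was not counted, so the 18.6% cannot be set beside these 4. With edgeR, DESeq2 and voomWithQualityWeights on reads recovered from the CPM, and with median-of-ratios scaling, 2 of the 9 factors, Zeb1 and Zeb2, passed as higher, a share of 22.2%. In those 4 analyses 22.2%, 20.3%, 24.8% and 22.4% of all genes passed as higher, so 2 of 9 is close to the share of all genes. The median change of the 9 was -0.30, beside -0.11 for all genes tested. Twist2 had a mean of 0.773 CPM over the 6 libraries, under the minimum of 1, and was not tested.

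**Figure D2:**
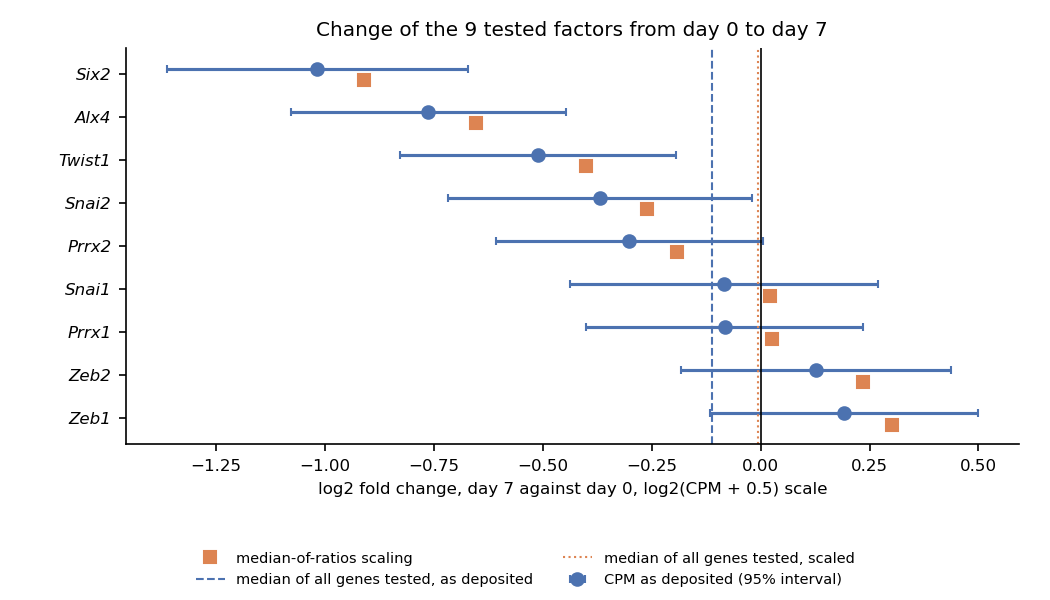
log2 fold change from day 0 to day 7 (horizontal axis, log2(CPM + 0.5) scale) of the 9 tested factors, with circles and 95% intervals for the CPM as deposited and squares for CPM rescaled by the median of ratios. The vertical lines mark the median of all genes, -0.11 as deposited and -0.01 after scaling, and the intervals of Six2, Alx4, Twist1 and, by a narrow margin, Snai2 lie wholly below 0 (they are not adjusted for the number of genes).

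Six2 had the largest change of the 9 factors tested. Its RPKM was 14.6, 15.2 and 14.8 in the day 0 libraries, 8.78, 7.69 and 8.96 at day 4, and 8.29, 7.07 and 6.40 at day 7. All day 0 libraries lay above all others, and days 4 and 7 overlapped. Six2 fell by 1.02 ± 0.17 (SE, n = 3 and 3 libraries) on the log2 scale, with an adjusted p of 5.09e-06 in limma and a 95% interval from -1.36 to -0.67. The mean RPKM stood at 57.1% of day 0 by day 4 and at 48.8% by day 7. Six2 passed the threshold in 17 of 17 alternative analyses.

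In the values as deposited, Alx4 was lower at day 7 alone. Its RPKM was 26.3, 26.4 and 21.0 at day 0, 23.7, 21.4 and 23.8 at day 4, and 17.0, 12.9 and 13.5 at day 7. The libraries of days 0 and 4 overlapped. All day 7 libraries lay below both, which held for 11% of 12782 genes, whether or not their days 0 and 4 overlapped. From day 0 to day 7 Alx4 fell by 0.76 ± 0.16 (SE) on the log2 scale, with a limma adjusted p of 1.30e-04, and it too passed in 17 of 17 alternatives. With the 9 libraries rescaled by the median of ratios, all day 4 libraries of Alx4 lay below those of day 0 as well.

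Twist1 was high at day 0 and lower at both later stages. Its RPKM was 101, 113 and 77.1 at day 0, 65.4, 59.5 and 68.6 at day 4, and 66.0, 63.3 and 72.3 at day 7. Day 0 replicate 3 was the lowest of that stage and still lay above every later one, and days 4 and 7 overlapped. Twist1 fell by 0.51 ± 0.16 (SE) on the log2 scale from day 0 to day 7, with a limma adjusted p of 0.0102 and a 95% interval from -0.83 to -0.19. This call rested on single libraries: the adjusted p was 0.119 without day 0 replicate 2, 0.0563 without day 7 replicate 1 and 0.0555 without day 7 replicate 2, and it passed in the other 14 of 17 alternatives.

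Twist2, the paralog of Twist1, was near the floor of detection of 3 reads. It had 14, 18 and 5 reads at day 0, 23, 30 and 26 at day 4, and 7, 7 and 5 at day 7, or an RPKM of 0.331 ± 0.136 (SD, n = 3), 0.234 ± 0.0172 and 0.156 ± 0.0530. Days 0 and 7 overlapped, but not after median-of-ratios scaling over the 9 libraries, where all day 7 libraries lay below those of day 0. Within each library Twist1 exceeded Twist2 from 235-fold to 717-fold in RPKM, and all 9 libraries had the same order.

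Neither Prrx2 nor Prrx1 passed the test from day 0 to day 7. The RPKM of Prrx2 was 86.6, 82.9 and 74.7 at day 0, 72.3, 58.4 and 66.5 at day 4, and 72.7, 59.9 and 65.7 at day 7. All later libraries lay below all day 0 libraries, yet the change to day 7 of -0.30 ± 0.15 (SE) did not pass, with a limma adjusted p of 0.132. Without day 0 replicate 3 it was -0.36 with an adjusted p of 0.0112. The RPKM of Prrx1 was 43.4, 50.6 and 37.8 at day 0, 52.4, 46.3 and 54.9 at day 4, and 42.5, 41.0 and 40.0 at day 7. Days 0 and 7 of Prrx1 overlapped, all day 4 libraries lay above those of day 7, and the change from day 0 to day 7 was -0.08 ± 0.16 (limma adjusted p of 0.739).

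Of the EMT repressors, Zeb1 and Zeb2 stood well above their other stages at day 4. The RPKM of Zeb1 was 8.85, 8.34 and 7.60 at day 0, 18.7, 13.5 and 16.2 at day 4, and 10.1, 9.02 and 9.21 at day 7. That of Zeb2 was 7.07, 6.73 and 5.35 at day 0, 9.75, 9.39 and 9.86 at day 4, and 6.91, 7.07 and 6.78 at day 7. In both genes every day 4 library lay above every library of days 0 and 7, and the day 4 mean stood at 196% of day 0 for Zeb1 and 151% for Zeb2. The day 7 mean was back to 114% and 108%. From day 0 to day 7 the change was 0.19 ± 0.15 (SE) for Zeb1, with a limma adjusted p of 0.367. It was 0.13 ± 0.15 for Zeb2, with a limma adjusted p of 0.577. After median-of-ratios scaling the changes were 0.30 and 0.24 and both passed, and over all alternatives the adjusted p ranged from 0.00232 to 0.621 for Zeb1 and from 0.0168 to 0.973 for Zeb2.

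Snai1 stood nearer to its other stages at day 4. Its RPKM was 12.3, 13.8 and 15.3 at day 0, 15.8, 17.3 and 17.9 at day 4, and 15.6, 11.5 and 12.2 at day 7. All day 4 libraries lay above the others by a narrow margin, and after median-of-ratios scaling over the 9 libraries days 0 and 4 overlapped. The change to day 7 was -0.08 ± 0.18 (SE, limma adjusted p of 0.761). Snai2 was at 13.9, 18.3 and 14.9 RPKM at day 0, 15.9, 13.9 and 18.9 at day 4, and 14.8, 10.6 and 11.1 at day 7. Its stages overlapped throughout, and the change to day 7 of -0.37 ± 0.17 had an unadjusted p of 0.0394 and a limma adjusted p of 0.104. Snai3, the remaining Snail paralog, had no reads at days 0 and 7 and at most 6 in a day 4 library.

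The day 4 libraries were tabulated apart from the others and were deeper, so no test used them and only overlap is given. Between days 0 and 4, 3 of the 10 factors (Snai1, Zeb1 and Zeb2) were higher without overlap, where 21.6% of 12782 genes were, and 3 (Twist1, Prrx2 and Six2) were lower, where 21.9% of genes were. Between days 4 and 7, 6 of the 10 (Twist2, Prrx1, Snai1, Zeb1, Zeb2 and Alx4) were lower without overlap, where 25% of genes were, and none was higher, where 13.6% of genes were. A day 4 level above every library of both other stages occurred in 3 of the 10 factors and in 8.07% of genes. Between days 0 and 7, Twist1, Prrx2, Six2 and Alx4 were lower without overlap (25.1% of genes) and Zeb1 was higher (17.1% of genes). After median-of-ratios scaling over the 9 libraries, Prrx1 took the place of Snai1 among those higher at day 4, Alx4 joined those lower at day 4, Twist2 no longer separated days 4 and 7 but was lower at day 7 than at day 0, and Zeb2 was also higher at day 7 than at day 0. The shares of all genes were not counted after this scaling, so those above cannot be set beside the scaled results. Immediate early genes, which respond to handling and dissociation as well as to growth factors, were also highest at day 4: the summed level of the 16 genes listed was 312 to 371 CPM at day 0, 773 to 942 at day 4 and 384 to 522 at day 7. Their part in the day 4 levels of Zeb1, Zeb2 and Snai1 was not tested. Over the 9 libraries log2 RPKM of Zeb1 and Zeb2 had a Pearson correlation of 0.94, given as a description, since the libraries share stages, tables and depth.

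Ratios of paralogs within a library do not depend on how the library was scaled. Prrx1 stood at 0.501 to 0.610 of the RPKM of Prrx2 at day 0, at 0.725 to 0.824 at day 4 and at 0.585 to 0.684 at day 7. The day 4 range lay above both others, and days 0 and 7 overlapped. The ratio of Zeb1 to Zeb2 was 1.24 to 1.42 at day 0, 1.44 to 1.92 at day 4 and 1.28 to 1.46 at day 7. In RPKM Zeb1 thus exceeded Zeb2 in all 9 libraries, with all day 4 ratios above those of day 0. In CPM, without the division by length, Zeb2 was the higher. Its means at days 0, 4 and 7 were 125.5, 190.0 and 136.1 CPM, against 83.6, 163.4 and 95.4 for Zeb1. The ratio of Snai1 to Snai2 was 0.755 to 1.03 at day 0, 0.946 to 1.24 at day 4 and 1.05 to 1.09 at day 7. Its day 7 libraries lay just above those of day 0, a difference of 0.29 on the log2 scale with an exact permutation p of 0.1, the smallest that 3 against 3 libraries can give. The differences of the other pairs were 0.55 for Twist1 to Twist2, 0.22 for Prrx1 to Prrx2 and 0.07 for Zeb1 to Zeb2, with exact permutation p of 0.3, 0.3 and 0.5. Adjusted over the 4 pairs, the exact p were 0.4 for 3 of them and 0.5 for Zeb1 to Zeb2, and none could have passed.

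**Figure D3:**
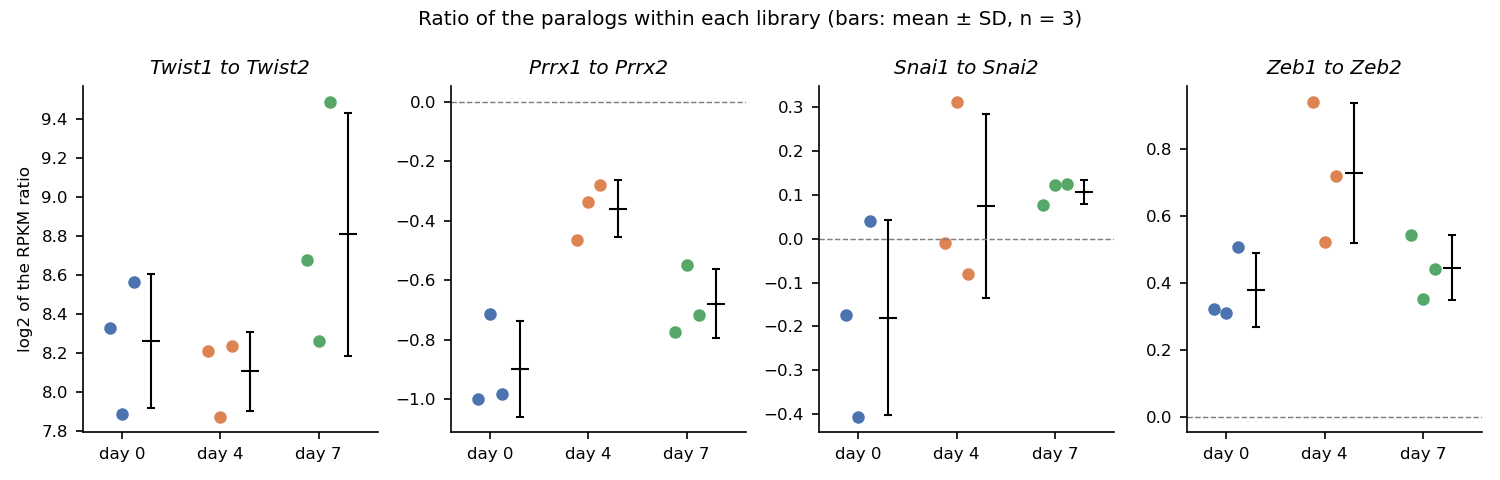
log2 of the RPKM ratio of each paralog pair (vertical axes, which differ in range and do not start at 0) in the 3 libraries of each stage (points), with mean and SD beside them and a dashed line at equal levels where it falls in range. The day 4 ratios of Prrx1 to Prrx2 lie above all others, and Twist1 exceeds Twist2 at least 235-fold in every library.

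Genes that act with these factors were counted from lists chosen by role, beside a median log2 change of -0.11 and shares of 12.6% higher and 18.6% lower over all genes tested. Of 13 dimer partners and relatives of TWIST, 8 were tested, of which 6 fell and 1 rose, with a median log2 change of -0.62. Id4, an inhibitor that binds E proteins away from DNA, fell by 1.27 ± 0.19 (SE, limma adjusted p of 6.98e-07), and the E protein gene Tcf4 fell by 0.77 ± 0.15 (6.63e-05). Id2, another inhibitor of E proteins, rose by 0.68 ± 0.17 (0.00182). The other E protein genes, Tcf3 and Tcf12, were named after their values were seen: Tcf12 fell by 0.48 ± 0.15 (limma adjusted p of 0.0129), and Tcf3 by 0.59 ± 0.22 (0.0324). Tcf3 rested on day 0 replicate 3, at 265 RPKM against 107 and 84.1 in the others of that stage and 79.8, 84.2 and 105 at day 7, and without it the change was -0.09 (0.588). Id2 lost its call without day 7 replicate 1 (0.0530), and Tcf12 without any of 3 single libraries (0.0557 to 0.121).

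Of the 6 EYA and DACH cofactors that bind SIX2 and its relatives, the 5 tested all fell, with a median log2 change of -0.97. Eya2, a coactivator with phosphatase activity, went from 16.1 ± 2.49 RPKM (SD, n = 3) at day 0 to 9.50 ± 0.483 at day 4 and 7.71 ± 0.731 at day 7, and fell by 1.04 ± 0.17 (SE, limma adjusted p of 2.11e-06), close to the change of Six2. Dach2, a corepressor, was low throughout, at 0.375 RPKM at day 0, and had 0, 0 and 2 reads at day 7, so that it was at least 16.0-fold lower (floor of 3 reads per library). Dach2 passed the filter on low values through day 0 alone, which fixed its direction. The count of 5 was 3 without day 0 replicate 2 or without day 7 replicate 2. Eya3 lost its call with the replicate block and without any single library except day 0 replicate 3 (limma adjusted p from 0.0779 to 0.130). Of the genes related to Six2, Six4 fell by 0.90 ± 0.18 (SE, limma adjusted p of 9.59e-05), and Six5 had a change of 0.04 ± 0.18 (0.882).

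Of 38 other patterning factors of the skull and sutures, which include Six4 and Six5, 32 were tested, 19 fell and 4 rose, with a median log2 change of -0.65. Msx2, a homeodomain factor whose dosage sets growth of the skull bones, fell by 1.91 ± 0.16 (SE, limma adjusted p of 5.84e-14) from 38.0 RPKM at day 0 to 10.3 at day 4 and 9.999 at day 7. Zic4, a zinc-finger factor, fell by 1.56 ± 0.18 (1.14e-09). In the other direction Dlx3, a homeodomain factor of osteoblasts, had 1, 0 and 3 reads at day 0 and 5.37 RPKM at day 7, at least 49.2-fold higher, and Gli1, a target and effector of hedgehog signalling, rose by 3.85 ± 0.22 (4.93e-20). Dlx3 passed the filter on low values through day 7 alone, which fixed its direction. Of the genes related to Alx4, Alx1 had a change of 0.34 ± 0.17 (limma adjusted p of 0.120) at 14.99 RPKM at day 0 and 18.8 at day 7, and Shox2 rose by 1.41 ± 0.21 (3.25e-07). Genes of proliferation fell over the same days, 12 of 14 with none higher, with a summed level of 784 to 1198 CPM at day 0, 465 to 621 at day 4 and 577 to 676 at day 7, and their part in these changes was not tested.

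Most epithelial genes listed as targets of SNAI and ZEB were near the floor at every stage. Of the 26 epithelial genes matched, 22 had a mean RPKM below 1 at each stage and 11 had at most 3 reads in every library, among them Cldn4 and Prom2 with none. Cdh3 (P-cadherin) was the clear exception, at 17.3 ± 1.10 RPKM (SD, n = 3) at day 0, 18.9 ± 0.950 at day 4 and 14.2 ± 0.607 at day 7, with a change of -0.28 ± 0.15 (SE, limma adjusted p of 0.167). Krt19 and Pkp2 reached 2.25 and 2.28 RPKM at day 4. Only 8 could be tested, of which 2 rose and 2 fell, with a median log2 change of 0.01. Cdh1 had 4, 9 and 2 reads at day 0, 20, 35 and 27 at day 4, and 22, 14 and 31 at day 7. It rose by 1.22 ± 0.29 (SE, limma adjusted p of 8.46e-04) but reached no more than 0.357 ± 0.0736 RPKM at day 7. Cdh1 passed the filter on low values through day 7 alone, which fixed its direction. The desmosome gene Pkp2 rose by 0.69 ± 0.22 (0.0124), the tight junction gene Cldn1 fell by 1.10 ± 0.27 (0.00107), and Patj, an epithelial polarity gene, fell by 0.59 ± 0.19 (0.0111). Pkp2 lost its call without day 0 replicate 2, day 7 replicate 1 or day 7 replicate 3 (0.0520 to 0.0742), and Patj without day 0 replicate 1 or day 7 replicate 3 (0.0725 and 0.0579). Epcam, whose E-boxes are shown above, had 0, 0 and 1 reads at day 0, 3, 1 and 1 at day 4, and 10, 3 and 8 at day 7.

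All 16 mesenchymal genes of the EMT programme were tested, 6 rose and 2 fell, and their median log2 change was -0.01. When genes of any level were kept in the fit, 2 rose and 1 fell, and 1 fell with DESeq2, voomWithQualityWeights, median-of-ratios scaling or without day 7 replicate 3. The 2 largest rises were of bone matrix collagens, Col1a1 by 1.35 ± 0.24 (SE, limma adjusted p of 1.78e-05) and Col1a2 by 1.29 ± 0.25 (7.11e-05). Cdh11, the cadherin of osteoblasts and mesenchyme, fell by 1.09 ± 0.17 (1.09e-06), and fibronectin, Fn1, fell by 0.71 ± 0.20 (0.00559). Fn1 lost its call under each of those 5 settings, with adjusted p from 0.0565 to 0.184. With genes of any level kept, Col1a1 (0.187), Col1a2 (0.298), Sparc (0.281) and Col3a1 (0.168) lost theirs. Of 18 corepressors and turnover factors of SNAI and ZEB, 4 fell and none rose, with a median of -0.19. The largest falls were of Btrc, part of a ubiquitin ligase that degrades SNAI1, by 0.68 ± 0.17 (limma adjusted p of 0.00210), and of Suv39h1, a histone methyltransferase, by 0.56 ± 0.18 (0.0138). The count of 4 was 1 without day 0 replicate 1, 9 without day 0 replicate 3 and 2 without any other single library, and Suv39h1 lost its call without 4 of them (0.0509 to 0.110).

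Surface genes used to mark suture mesenchyme and skeletal stem cells moved both ways, with 4 of 12 higher and 5 lower and a median log2 change of 0.10. Cd200 rose by 4.08 ± 0.16 (SE, limma adjusted p of 4.36e-26) from 3.48 ± 0.588 RPKM (SD, n = 3) to 35.2 ± 8.58 at day 4 and 60.9 ± 5.01 at day 7, and Nt5e (CD73) rose by 2.48 ± 0.18 (8.87e-16). The receptor gene Pdgfrb fell by 1.27 ± 0.15 (1.89e-09) and the integrin gene Itgav by 0.96 ± 0.16 (2.45e-06).

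**Figure D4:**
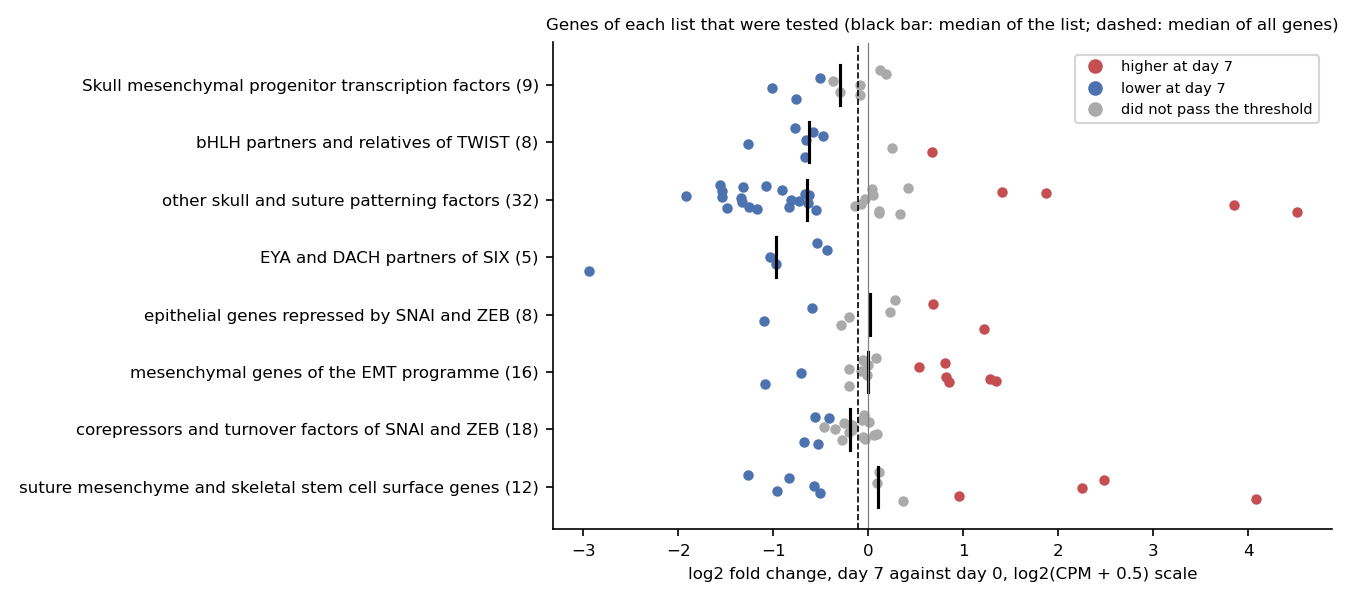
log2 fold change from day 0 to day 7 (horizontal axis, log2(CPM + 0.5) scale) of each tested gene (points) of the 10 factors and of 7 lists of related genes, with the number tested after each name. Black bars mark each list's median and the dashed line that of all genes (-0.11). The 5 tested EYA and DACH genes all lie below 0, with the direction of Dach2 fixed by the filter on low values.

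The genes whose log2(RPKM + 0.1) followed Twist1 most closely over the 9 libraries, among 9100 genes with a mean of at least 10 CPM, were Calm3 with a Pearson correlation of 0.989, Hnrnph1 with 0.988 and Lbr with 0.987. Those closest to Six2 were Eefsec with 0.995, Dpy19l3 with 0.992 and Arhgap35 with 0.991. Eefsec went from 6.10 ± 0.0980 RPKM (SD, n = 3) at day 0 to 4.58 ± 0.230 at day 4 and 4.24 ± 0.354 at day 7, a smaller change than that of Six2 with the same order of stages. These correlations describe libraries that share stages, tables and depth.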

How the data were processed

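RNA-seq of 9 libraries, 3 per stage, was grouped by the stage in the labels. According to the methods and labels, the authors aligned reads to the Ensembl release 76 assembly (GRCm38) with STAR 2.0.4b and counted uniquely aligned reads per gene with featureCounts. As deposited, CPM are reads per gene over the total of the library. RPKM, also deposited by the authors, divide this by gene length. Days 0 and 7 share tables and day 4 has its own, with no sample column left unmatched. Lines that repeated a gene held the same values and 1 was kept.

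In every library 100% of the CPM were multiples of a single read (tolerance 0.05), so reads could be recovered for count models, and CPM as deposited were used for the main test. Counts of replicates differed beyond sampling (chi-square divided by its degrees of freedom from 11.7 to 203), so none was taken for a library deposited a second time.

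For day 7 minus day 0, limma 3.58.1 (R 4.3.3) was run 2-sided on log2(CPM + 0.5) with trended variances, over the 12712 genes whose 6 libraries averaged 1 CPM or more. The fold changes understate those of low genes. With 42.9 prior and 4 residual degrees of freedom, p-values depend mainly on the variance trend over genes. The test was checked on simulated data in which every gene had the same variability between libraries. That check does not cover libraries in which a single transcript took a large share of the reads. Overlap with day 4 used the 12782 genes with that mean over the 9 libraries. Alternatives were other pseudocounts (0.1 and 1), filters, median-of-ratios scaling, robust variances, the RPKM table, a replicate block, each library left out, and edgeR 4.0.16, DESeq2 1.42.0 and voomWithQualityWeights on recovered reads. The floor of 3 reads allows for counting error alone, because PCR copies carried no mark.

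The 10 genes and all lists were chosen with earlier results of these data known. Named are all 10 factors, their paralogs except some that are not reported here, in each pathway list the largest rises and falls past the threshold (at most 2 in each direction), and the 3 genes most correlated with Twist1 and with the factor that fell most; genes named with read counts or from marker lists were chosen after their values were seen. The lists were: TWIST partners, EYA and DACH cofactors, other patterning factors, epithelial genes, mesenchymal genes, corepressors, stem cell surface genes, and markers of osteoblasts, macrophages, osteoclasts, endothelium, skeletal muscle, smooth muscle and pericytes, Schwann cells and glia, chondrocytes, adipocytes, proliferation and the immediate early response. One epithelial symbol matched no gene. Protein sequences were not analysed here.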

Additional observations from a re-analysis of the deposited data

How the results depend on the processing

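Six2, Alx4 and Twist1 stayed lower at day 7 in all 17 alternatives, and only Twist1 lost its call, when any of 3 single libraries was left out. The small changes moved with the scaling and with single libraries. With median-of-ratios scaling the median change of all genes moved from -0.11 to -0.01 and the share of called genes that rose from 40.3% to 52.1%, and it was 25.4% without day 0 replicate 3. Of 153 results for single factors, 132 kept their direction and side of the threshold, 3 lost it, 9 gained it and 9 changed sign, all of the last close to 0. The change of Prrx1 turned to 0.0223 with edgeR, 0.0257 with DESeq2, 0.0271 with median-of-ratios scaling and 0.0243 without day 0 replicate 2, and ranged from -0.186 to 0.0243 when 1 library was left out. That of Snai1 turned to 0.0371 with edgeR, 0.0249 with DESeq2, 0.0226 with median-of-ratios scaling, 0.131 with voomWithQualityWeights and 0.0003 without day 7 replicate 2, and ranged from -0.214 to 0.0003 when 1 library was left out.

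The number of genes called was 3971, against 6120 with voomWithQualityWeights, and ranged from 2906 to 6299 when 1 library was left out, with the highest count without day 0 replicate 3. The number of factors that rose was 2 in place of 0 with DESeq2, edgeR, voomWithQualityWeights and median-of-ratios scaling, where 20.3% to 24.8% of all genes rose, and the cause was not tested beyond the shift of the median. The number that fell ranged from 2 to 4 when 1 library was left out, where 12% to 36.9% of all genes fell. Factors lower without overlap from day 0 to day 4 numbered 3, and from 3 to 5 when 1 library was left out, and those lower from day 4 to day 7 numbered 6, and from 6 to 8. With fewer libraries any gene separates more easily, and the shares of all genes were not counted for these settings. The log2 differences of the paralog ratios ranged, when 1 library was left out, from 0.21 to 0.82 for Twist1 to Twist2, 0.15 to 0.31 for Prrx1 to Prrx2, 0.18 to 0.40 for Snai1 to Snai2 and 0.02 to 0.13 for Zeb1 to Zeb2, and adding 0.1 RPKM to both genes left 0.21 for Twist1 to Twist2.

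With the replicate number as a block 3413 genes were called and 3 factors fell, as without it. Same-numbered day 0 and day 7 libraries did not deviate together (correlations of -0.017, -0.181 and -0.444). The values thus gave no sign that the numbers pair the samples, which 3 libraries per stage cannot exclude. Twist2, with at most 30 reads, is limited by depth.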
